A study of Rattus norvegicus with 6 samples.

Results

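Chemokine and chemokine receptor genes were examined in stem cells of mesenchymal type, grown from rat nasal mucosa, by RNA sequencing of 3 EMSC libraries and 3 NPS-EMSC libraries. The genes were taken by symbol, as every Ccl, Cxcl, Ccr, Cxcr and Ackr gene with a row in the deposited counts together with Cx3cl1, Cx3cr1 and Xcl1. This gave 43 of 20653 genes, 28 of them ligands and 15 receptors. No row was found for Cx3cr1. The filter on low counts passed 21 of the 43, namely 17 ligands and 4 receptors, and the remaining 22 had too few reads to be tested.

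Both groups are labelled as primary cells of the SD genotype. By the series title, the NPS-EMSC are stem cells that overexpress neuropeptide S, a secreted neuropeptide, for use in rats with spinal cord injury. The labels give neither the vector and promoter that drive Nps nor whether EMSC carried an empty vector, so effects of gene delivery and of the peptide cannot be told apart. Nothing in the labels says that the 3 libraries of a group came from separate cultures, and the p-values may therefore measure technical spread only. The libraries held 39082245 to 40261205 counted reads, and Nps had 77014 to 93566 reads in NPS-EMSC and 0 to 10 in EMSC. All 12 mesenchymal markers examined were detected, at a summed 26430 to 29140 CPM (reads scaled to library total) in EMSC and 28820 to 30040 in NPS-EMSC. Of these markers, 7 rose and 5 fell (edgeR, adjusted p under 0.05), where 29.7% of all tested genes rose and 29.5% fell. Among them were Nt5e, which was 4.45-fold higher, Thy1, 2.92-fold higher, and Pdgfra, 1.93-fold lower.

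Chemokines are small secreted proteins that guide migrating cells. They are grouped into CC, CXC, C and CX3C types by the spacing of the first cysteines, and they act through G protein-coupled receptors on leukocytes and other cells. Atypical receptors (Ackr) bind chemokines without classical G protein signalling and remove or redistribute them. Mesenchymal stromal cells are known as a source of chemokines, in particular of Cxcl12, which retains blood stem cells in the bone marrow, and of Ccl2 and its relatives, which recruit monocytes.

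Ccl7, Ccl11, Ccl20 and Cxcl13 were higher in NPS-EMSC, whereas Cxcl12, Cx3cl1 and the neutrophil attractants Cxcl1 and Cxcl6 were lower. Of the 21 tested genes, 6 rose and 12 fell at an adjusted p under 0.05 in the quasi-likelihood test of edgeR, or 85.7%, where the background over all 14505 tested genes was 59.3%. The background was 29.7% for higher and 29.5% for lower genes. At a change of at least 2-fold, 4 rose and 10 fell, against 6.48% and 8.3% of all tested genes. The median log2 fold change (NPS-EMSC minus EMSC) was -0.85 over the 21 genes and -0.00479 over all tested genes, and the median absolute value was 1.87 against 0.34. In 17 of the 21 the CPM values of the groups did not overlap, which held for 64.7% of all tested genes. These shares describe the genes that passed the filter and not all 43. Of the genes that fell, Cx3cl1, Ccl19, Ccl9 and Cxcl14 passed the filter only through their EMSC libraries. Such genes could hardly appear other than as lower, so the counts of lower genes are in part set by the filter.

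**Figure D1:**
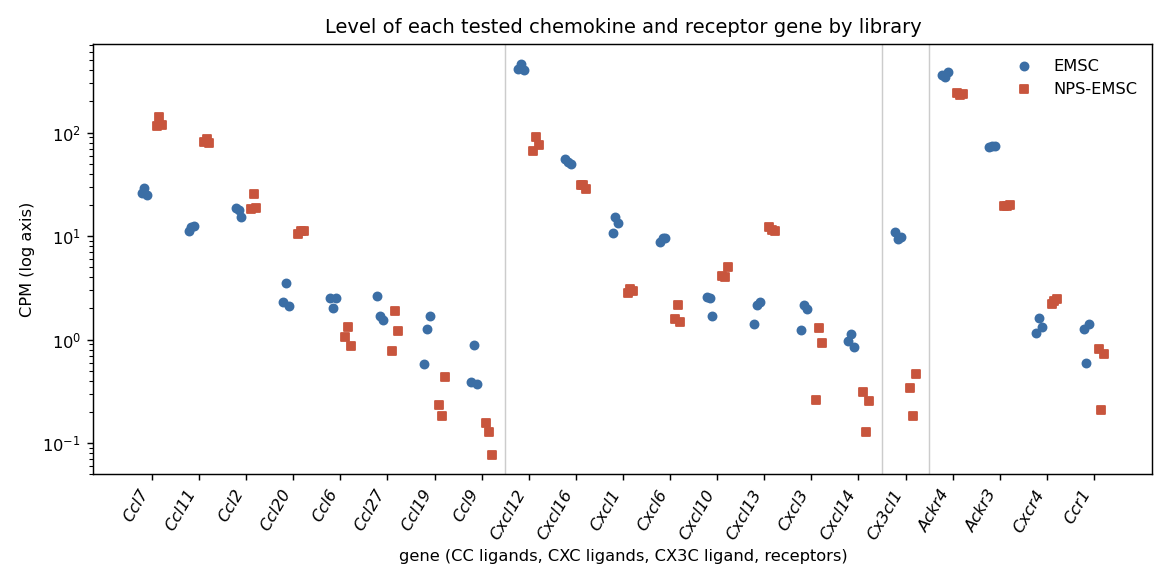
CPM of each tested gene in each of the 6 libraries, on a log axis, with circles for EMSC and squares for NPS-EMSC and grey lines between CC ligands, CXC ligands, the CX3C ligand and receptors. Ccl7, Ccl11, Ccl20 and Cxcl13 sit higher in all 3 NPS-EMSC libraries, and Cxcl12, Cxcl1, Cxcl6 and Cx3cl1 lower, while Ccl2, Ccl27, Ccr1 and Cxcl3 overlap.

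The monocyte- and eosinophil-attracting CC ligands differed among themselves. Ccl7, a ligand of Ccr1, Ccr2 and Ccr3, had 1079, 1184 and 985 reads in EMSC and 4411, 5479 and 4584 in NPS-EMSC. The lowest NPS-EMSC library lay far above the highest EMSC library, and Ccl7 rose 4.67-fold, from 26.7 ± 2.35 to 125 ± 14.6 CPM (SD, n = 3; edgeR adjusted p = 1.41e-12; log2 fold change 2.22, SE 0.08). Ccl11, eotaxin, which attracts eosinophils through Ccr3, had 464, 499 and 501 reads in EMSC and 3106, 3380 and 3112 in NPS-EMSC. The groups were again wide apart, and Ccl11 rose 6.85-fold, from 12.1 ± 0.688 to 82.8 ± 4.01 CPM (log2 fold change 2.78, SE 0.07, edgeR adjusted p = 3.47e-21).

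Ccl2, the main monocyte attractant of stromal cells and the ligand of Ccr2, did not follow them. It had 768, 729 and 614 reads in EMSC and 697, 996 and 724 in NPS-EMSC, so that the groups overlapped and 1 NPS-EMSC library stood above the other five. Its log2 fold change was 0.26 (SE 0.12, edgeR adjusted p = 0.0691). Without NPS-EMSC replicate 2 the value was 0.085 (adjusted p = 0.528), while without NPS-EMSC replicate 1 or 3 it was 0.35 or 0.34 and passed (adjusted p = 0.0213 and 0.0346). It also passed without a filter on low counts (adjusted p = 0.0165) and with the replicate number as a block (log2 fold change 0.25, adjusted p = 0.0349), although the numbers did not pair the libraries. Over its 17 alternatives the adjusted p ran from 0.0165 to 0.528. Ccl12, another Ccr2 ligand of rodents, had 14, 7 and 22 reads in EMSC and 0, 8 and 2 in NPS-EMSC and was not tested.

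Ccl2, Ccl7, Ccl11 and Ccl12 lie next to each other in RefSeq (rat assembly GRCr8), with 0 other protein-coding genes between them. Within a library, which removes differences in depth, the ratio of Ccl7 to Ccl2 reads was 1.4, 1.62 and 1.6 in EMSC and 6.33, 5.5 and 6.33 in NPS-EMSC. The ratio of Ccl11 to Ccl2 reads was 0.702 ± 0.107 in EMSC and 4.05 ± 0.573 in NPS-EMSC (SD, n = 3). That of Ccl7 to Ccl11 went from 2.22 ± 0.222 to 1.5 ± 0.104. Each of the 3 ratios separated the groups without overlap, with a two-sided exact permutation p = 0.10, the smallest that 3 against 3 libraries can give, so that this test could not pass 0.05. These paralogs are alike in sequence, and how reads shared between copies were counted is not given in the sources used here.

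The stretch before the start of Ccl7 is printed because Ccl7 had the highest ligand level per length in NPS-EMSC. It comes from RefSeq (GRCr8), runs 5′ to 3′ along the gene and ends at the base before the start, as do the other promoters printed here. The deposited counts name no build. Capitals mark matches to 3 motifs, searched on both strands over 300 bases, 250 before and 50 after the start. These were the NF-kB consensus (searched with its usual ambiguous letters), the AP-1 motif TGANTCA and the interferon response element (GAAA, then a pair of any bases, then GAAA). Of 27457 promoters of this length, 4.16% held the first, 7.33% the second and 3.77% the third. Of the 43 genes, 32 had a promoter in this table, 18 of them tested.
Ccl7, chr10:67513845-67514094, plus strand: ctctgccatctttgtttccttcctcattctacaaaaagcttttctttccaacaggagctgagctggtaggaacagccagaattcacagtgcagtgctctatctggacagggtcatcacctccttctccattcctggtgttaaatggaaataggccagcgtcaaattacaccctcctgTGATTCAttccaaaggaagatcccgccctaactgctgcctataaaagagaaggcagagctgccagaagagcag

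The capitals in Ccl7 are an AP-1 match, TGATTCA, 73 to 67 bases before the start. NF-kB and AP-1 are transcription factors of the inflammatory response, and a match in such a window describes letters and not binding. Among the 18 tested genes with a promoter, 5 held an NF-kB match (Ccl20, Ccl9, Cxcl1, Cxcl10 and Cxcl6), 3 an AP-1 match (Ccl7, Cxcl10 and Cxcl14) and 2 an interferon response match (Ccl19 and Cxcl10). The NF-kB matches were in 2 of the 5 genes with a promoter that rose and in 3 of the 11 that fell. The tested genes Ccl2, Ccl11 and Cxcl3 had no promoter entry and were not searched.

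**Figure D2:**
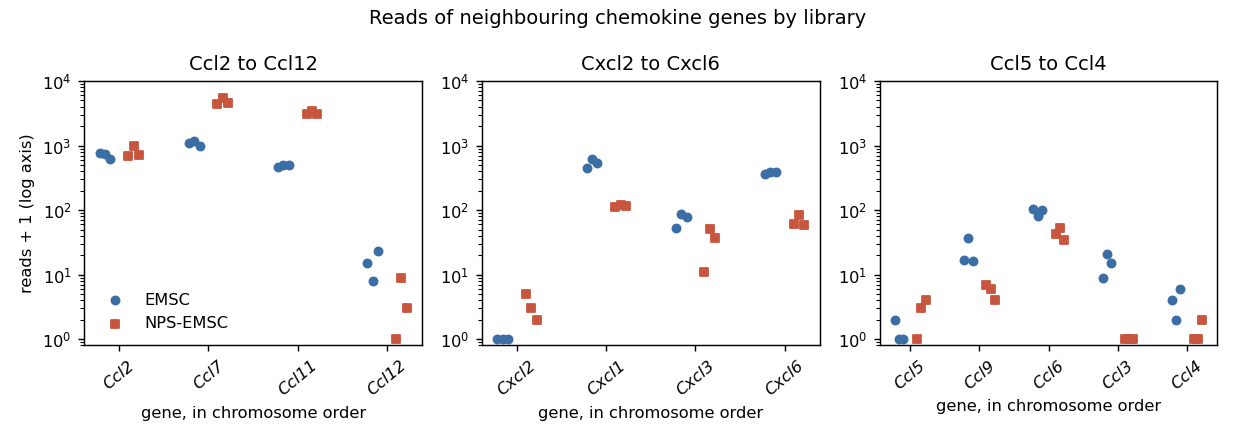
Reads plus 1 of neighbouring chemokine genes in each library, on a log axis and in chromosome order, with circles for EMSC and squares for NPS-EMSC. In the left panel Ccl7 and Ccl11 are separated upward in NPS-EMSC and Ccl2 overlaps. In the middle panel Cxcl1 and Cxcl6 are separated downward, and in the right panel Ccl3 stands at 0 reads in all 3 NPS-EMSC libraries.

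CXC ligands with the ELR motif act on Cxcr2 and attract neutrophils, and their 3 tested genes fell. Cxcl1 had 445, 612 and 533 reads in EMSC and 109, 119 and 116 in NPS-EMSC. The NPS-EMSC values lay close together below all EMSC values, and Cxcl1 fell 4.36-fold, from 13.1 ± 2.18 to 2.97 ± 0.115 CPM (SD, n = 3; edgeR adjusted p = 7.53e-12; log2 fold change -2.12, SE 0.15). Cxcl6, for which RefSeq lists Cxcl5 as a synonym, had 359, 389 and 383 reads in EMSC and 60, 84 and 58 in NPS-EMSC. It fell 5.22-fold without overlap (log2 fold change -2.38, SE 0.18, edgeR adjusted p = 1.86e-11). The ratio of Cxcl1 to Cxcl6 reads overlapped between the groups, at 1.4 ± 0.167 in EMSC and 1.74 ± 0.298 in NPS-EMSC (SD, n = 3).

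Cxcl3, of the same type, had 51, 87 and 78 reads in EMSC and 10, 50 and 36 in NPS-EMSC. It passed with a log2 fold change of -1.06 (SE 0.41, edgeR adjusted p = 0.0297), although its CPM values overlapped. The call was lost without EMSC replicate 2 (adjusted p = 0.11), EMSC replicate 3 (0.0828), NPS-EMSC replicate 1 (0.14) or NPS-EMSC replicate 3 (0.0543), and on log2(FPKM + 1) values without a filter (0.0709). The adjusted p ran from 0.00614 to 0.14 over its alternatives. Cxcl2, a further neutrophil attractant, had no read in EMSC (0, 0 and 0) and 4, 2 and 1 in NPS-EMSC. It was not tested, and its reads are too few to give a fold change. Cxcl1, Cxcl2 and Cxcl3 are close in sequence, so reads may have been split among them.

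The promoters of Cxcl1 and Cxcl6 are printed because both genes fell and both carry the same letters, GGGAATTTCCC, as the NF-kB match. It lies 84 to 74 bases before the start in Cxcl1 and 88 to 78 bases before it in Cxcl6.
Cxcl1, chr14:17479322-17479571, minus strand: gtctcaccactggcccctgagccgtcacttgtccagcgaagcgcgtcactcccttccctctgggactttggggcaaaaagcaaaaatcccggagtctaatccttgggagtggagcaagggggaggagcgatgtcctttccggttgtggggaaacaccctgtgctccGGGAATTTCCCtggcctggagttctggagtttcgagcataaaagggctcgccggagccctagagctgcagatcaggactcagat
Cxcl6, chr14:17596418-17596667, minus strand: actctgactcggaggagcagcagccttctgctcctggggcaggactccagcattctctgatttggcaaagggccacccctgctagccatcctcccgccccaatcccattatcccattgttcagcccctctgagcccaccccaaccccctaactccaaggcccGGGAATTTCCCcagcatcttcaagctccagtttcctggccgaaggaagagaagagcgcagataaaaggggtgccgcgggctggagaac

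Cxcl12, or SDF-1, the ligand of Cxcr4 and Ackr3, was the ligand with the most reads in EMSC. It had 16834, 18779 and 16033 reads in EMSC and 2569, 3530 and 2934 in NPS-EMSC. All NPS-EMSC values were far below the lowest EMSC value, and the gene fell 5.45-fold, from 425 ± 34.5 to 77.9 ± 12.3 CPM (SD, n = 3; edgeR adjusted p = 1.31e-05; log2 fold change -2.45, SE 0.13). Its scavenger Ackr3, which removes Cxcl12 from the surroundings of a cell, had 3008, 3012 and 2941 reads in EMSC and 751, 750 and 780 in NPS-EMSC. The values within each group nearly coincided, and Ackr3 fell 3.74-fold (log2 fold change -1.90, SE 0.06, edgeR adjusted p = 6.93e-19).

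Cxcr4, the signalling receptor of Cxcl12, was low and moved the other way. It had 48, 66 and 53 reads in EMSC and 85, 91 and 97 in NPS-EMSC, without overlap. Its level was 1.38 ± 0.237 CPM in the first group and 2.35 ± 0.136 in the second (SD, n = 3; log2 fold change 0.75, SE 0.28, edgeR adjusted p = 0.0221). The call was lost without EMSC replicate 1 (log2 fold change 0.65, adjusted p = 0.065) or NPS-EMSC replicate 3 (log2 fold change 0.71, adjusted p = 0.0649), and its adjusted p ran from 0.00299 to 0.065 over the alternatives. The ratio of Cxcl12 to Ackr3 reads was 5.6, 6.23 and 5.45 in EMSC and 3.42, 4.71 and 3.76 in NPS-EMSC. It was lower in all 3 NPS-EMSC libraries (two-sided exact permutation p = 0.10, the smallest possible).

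Of the other CXC ligands that were tested, Cxcl13 and Cxcl10 rose and Cxcl16 and Cxcl14 fell. Cxcl13, which attracts B cells through Cxcr5, had 58, 87 and 92 reads in EMSC and 465, 447 and 434 in NPS-EMSC. It rose 5.82-fold to 11.6 ± 0.502 CPM (SD, n = 3; edgeR adjusted p = 2.37e-12; log2 fold change 2.54, SE 0.17), with the groups wide apart. Cxcl10, an interferon-induced ligand of Cxcr3, had 106, 101 and 67 reads in EMSC and 158, 154 and 196 in NPS-EMSC. It rose 1.92-fold without overlap (log2 fold change 0.94, SE 0.22, edgeR adjusted p = 6.06e-04). Its relatives Cxcl9 and Cxcl11 were not tested, with 4 and 23 reads over the EMSC group and 0 and 12 over the NPS-EMSC group.

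Cxcl16, which is made as a membrane-anchored protein and binds Cxcr6, had 2288, 2092 and 1985 reads in EMSC and 1192, 1217 and 1106 in NPS-EMSC. It fell 1.72-fold without overlap (log2 fold change -0.79, SE 0.07, edgeR adjusted p = 2.29e-10). Cxcl14, a ligand of epithelia and stroma, was low, with 40, 46 and 34 reads in EMSC and 12, 5 and 10 in NPS-EMSC. It fell with a log2 fold change of -1.87 (SE 0.47), without overlap. Cxcl17, a mucosal ligand, had 4 reads in all, in 1 EMSC library.

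Ccl20, which attracts Ccr6-bearing lymphocytes and dendritic cells, had 95, 141 and 84 reads in EMSC and 404, 431 and 437 in NPS-EMSC. It rose 4.11-fold to a mean of 10.97 CPM (SD 0.366, n = 3; log2 fold change 2.04, SE 0.17, edgeR adjusted p = 1.56e-10), and no NPS-EMSC library came near the EMSC range. The promoters of Ccl20 and Cxcl10 are printed as those of the genes that rose and held an NF-kB match. In Ccl20 it is GGAAAACCCC, read on the opposite strand, 89 to 80 bases before the start. In Cxcl10 the capitals are, in order, an interferon response match, an NF-kB match and an AP-1 match.
Ccl20, chr9:91836909-91837158, plus strand: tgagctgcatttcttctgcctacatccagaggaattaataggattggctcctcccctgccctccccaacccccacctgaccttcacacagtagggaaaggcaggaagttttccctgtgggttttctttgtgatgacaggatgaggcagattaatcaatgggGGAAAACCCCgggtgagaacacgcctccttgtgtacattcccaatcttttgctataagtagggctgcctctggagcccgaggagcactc
Cxcl10, chr14:15988816-15989065, plus strand: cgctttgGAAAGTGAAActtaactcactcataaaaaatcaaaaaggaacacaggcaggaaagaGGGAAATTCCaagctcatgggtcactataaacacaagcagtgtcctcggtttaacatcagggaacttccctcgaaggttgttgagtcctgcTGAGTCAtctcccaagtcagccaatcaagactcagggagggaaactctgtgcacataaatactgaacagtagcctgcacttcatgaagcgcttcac

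Cx3cl1, fractalkine, is a membrane-bound ligand that acts as an adhesion molecule and, once shed, as an attractant for Cx3cr1-bearing monocytes and microglia. It had 456, 380 and 388 reads in EMSC and 13, 7 and 18 in NPS-EMSC. No other tested chemokine or receptor gene had so large a fitted change, at a log2 fold change of -4.74 (SE 0.24, edgeR adjusted p = 4.33e-15), from 10.1 ± 0.889 to 0.328 ± 0.141 CPM (SD, n = 3). On log2(FPKM + 1), which understates changes of low genes, the value was -1.81, which still passed but was no longer the largest of these genes. The C-type ligand Xcl1 had 1 read in all libraries together.

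**Figure D3:**
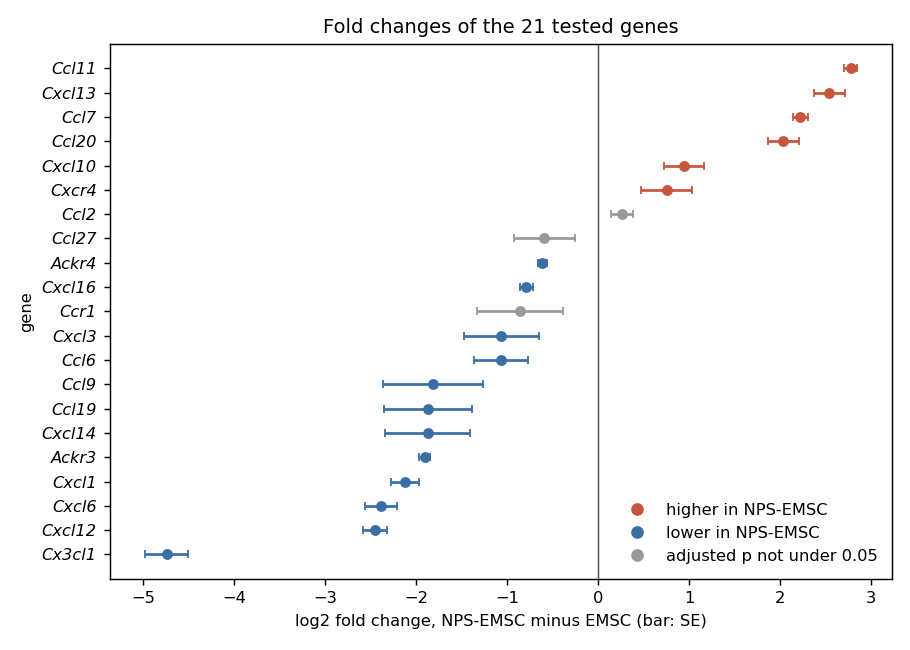
Log2 fold change (NPS-EMSC minus EMSC) of the 21 tested genes with its SE as a bar, ordered by size and coloured by the edgeR call at an adjusted p under 0.05. Values run from -4.74 for Cx3cl1 to 2.78 for Ccl11, and Ccl2, Ccl27 and Ccr1, in grey, did not pass.

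The atypical receptor Ackr4 takes up Ccl19, Ccl21 and Ccl25. It had 14762, 13885 and 15237 reads in EMSC and 9234, 8971 and 9186 in NPS-EMSC. It fell 1.53-fold without overlap, from 361 ± 19.2 to 236 ± 4.64 CPM (SD, n = 3; edgeR adjusted p = 2.08e-11; log2 fold change -0.61, SE 0.05). Among its ligands, Ccl19, which guides lymphocytes and dendritic cells through Ccr7, was low in both groups. Ccl19 had 24, 51 and 67 reads in EMSC and 9, 7 and 17 in NPS-EMSC and fell, with a log2 fold change of -1.87 (SE 0.49). Ccl25 had 1 read in all, and Ccl21 had no row. The atypical receptor Ackr2, which takes up inflammatory CC ligands, had 6 reads in all, in 5 and 1 over the groups, and Ackr1 had no row. Ccl27, a skin ligand of Ccr10, had 109, 69 and 62 reads in EMSC and 30, 73 and 47 in NPS-EMSC. It overlapped and did not pass (log2 fold change -0.59, edgeR adjusted p = 0.134), but without NPS-EMSC replicate 2 it had -0.95 and passed (adjusted p = 0.0305).

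The CC ligands known from macrophages were low in both groups, and the tested ones, Ccl6 and Ccl9, fell. Ccl3 had 8, 20 and 14 reads in EMSC and 0, 0 and 0 in NPS-EMSC, and it was too low to be tested. With 3 counts over the NPS-EMSC group in place of 0 it would be 13.4-fold lower, a value that leaves out the spread of the EMSC reads. Ccl6, a CC ligand found in rodents, had 103, 81 and 100 reads in EMSC and 41, 51 and 34 in NPS-EMSC and fell 2.10-fold (log2 fold change -1.07, SE 0.30, edgeR adjusted p = 0.00321). Ccl9, its neighbour in the gene table, had 16, 36 and 15 reads in EMSC and 6, 5 and 3 in NPS-EMSC and fell (log2 fold change -1.81, SE 0.55, edgeR adjusted p = 0.00633). Without EMSC replicate 2 this call was lost (log2 fold change -1.34, adjusted p = 0.0854). Over its 14 alternatives the adjusted p ran from 0.00556 to 0.0854. Ccl4 had 9 reads over EMSC and 1 over NPS-EMSC, Ccl5 had 1 and 5, and Ccl22 had 0 and 1.

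The signalling receptors other than Cxcr4 were near the limit of detection. Ccr1, a receptor of monocytes and neutrophils, had 52, 24 and 56 reads in EMSC and 31, 8 and 28 in NPS-EMSC. The groups overlapped and Ccr1 did not pass (log2 fold change -0.85, SE 0.47, edgeR adjusted p = 0.122). Ccr2, the Ccl2 receptor, had 10, 1 and 1 reads in EMSC and 0, 0 and 0 in NPS-EMSC, so most of its reads came from 1 library. Ccr7 had 19 and 16 reads over the EMSC and NPS-EMSC groups, Cxcr2 had 11 and 3, and Cxcr5 had 10 and 15. Ccr3, the receptor of Ccl11, had 0 and 4, Ccr6, that of Ccl20, had 0 and 2, Ccr9 had 1 and 0, Ccr10 had 3 and 4, and Cxcr3 had 4 and 4. Ccr3, Ccr6, Cxcr3 and Cxcr5, known receptors of Ccl11, Ccl20, Cxcl10 and Cxcl13, thus had at most 15 reads over a group of 3 libraries. Of the receptors of Ccl7, Ccr1 had 132 reads over EMSC and 67 over NPS-EMSC, and Ccr2 and Ccr3 had at most 12.

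Markers of myeloid cells moved with these macrophage genes. Of 16 markers, 14 were tested, 11 fell, 1 rose and 2 did not pass, where 29.5% of all tested genes fell and 29.7% rose. Their summed level was 94.1 to 102 CPM across EMSC libraries and 42.8 to 46.7 across NPS-EMSC libraries. Much of it came from Lyz2, at a mean of 52.5 CPM in EMSC and 3.84 in NPS-EMSC, and from Cd14, at 15.1 and 31.4. Ptprc (CD45), the general leukocyte marker, had 33, 20 and 41 reads in EMSC and 0, 1 and 0 in NPS-EMSC, Csf1r had 66 and 5 reads over the groups, and Lyz2 had 6377 and 445. Cd14 was the marker that rose, from 1840 to 3639 reads, and Coro1a and Spi1 did not pass. Their part in the lower Ccl6 and Ccl9 was not tested. The same holds for the reads of Ccl3 and Ccr2, which were too low for a test, and of Ccr1, which did not pass. In bulk libraries, fewer cells of a type and less RNA per cell cannot be told apart. The glial marker S100b fell 3.94-fold, and Sox10 had 7 and 6 reads over the groups. Their part in the lower ligands was not tested either.

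Markers of other cell types were counted in the same way, beside the same 29.7% of all tested genes that rose and 29.5% that fell. Of 8 epithelial markers 6 had a row and 2 were tested, Krt18 and Krt8, which rose. Of the untested ones, Krt5 had 28 reads over EMSC and 0 over NPS-EMSC, Krt14 had 1 and 0, Cdh1 6 and 4, and Epcam 4 and 4. The epithelial sum was 4.18 to 4.94 CPM in EMSC and 10.1 to 13.2 in NPS-EMSC. Of 6 smooth muscle markers, 4 rose and Des did not pass, and the sum was 784 to 908 CPM, against 3528 to 3739 in NPS-EMSC. The 3 tested endothelial markers, Pecam1, Vwf and Tek, had adjusted p from 0.631 to 0.789, and the sum was 2.29 to 3.18 CPM over all libraries. The tested lymphocyte markers, Cd4 and Lck, did not pass, with 57 and 20 reads of Cd4 and 59 and 29 of Lck over the groups. The lymphocyte markers summed to 0.282 to 1.55 CPM and the neutrophil markers to 0.0257 to 0.243 CPM. Their part in the chemokine results was not tested.

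Compared per length, the make-up of the ligand transcripts differed between the groups. FPKM (fragments scaled to gene length and library total) was used here because the lengths that the deposited values imply differ widely, from 807 bases for Ccl7 to 6921 for Cxcl12. Cxcl12 made up 29.8%, 31.2% and 30.0% of the summed ligand FPKM in the EMSC libraries and 3.10%, 3.58% and 3.44% in the NPS-EMSC libraries. Ccl7 made up 16.4 ± 0.553% in EMSC and 46.5 ± 1.06% in NPS-EMSC (SD, n = 3), and Ccl11 made up 6.11 ± 0.45% and 25.5 ± 1.15%. All CC ligands together were 40.5 ± 0.5% in EMSC and 85.4 ± 0.598% in NPS-EMSC, and the CXC ligands were 58.1 ± 0.66% and 14.6 ± 0.581%. The groups did not overlap in any of these shares.

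The direction of the ligand total depended on the scale. Summed FPKM was 205 ± 9.72 in EMSC and 327 ± 32.2 in NPS-EMSC, whereas summed reads were 23600 ± 1680 and 14410 ± 1453 (SD, n = 3), since reads of the long Cxcl12 weigh most in the second. Cxcl12 held 72.9 ± 0.917% of the ligand reads in EMSC and 20.8 ± 1.37% in NPS-EMSC. Each gene has 1 length in the deposited FPKM, so a Cxcl12 transcript shorter than that length would have a higher level per length than given here.

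**Figure D4:**
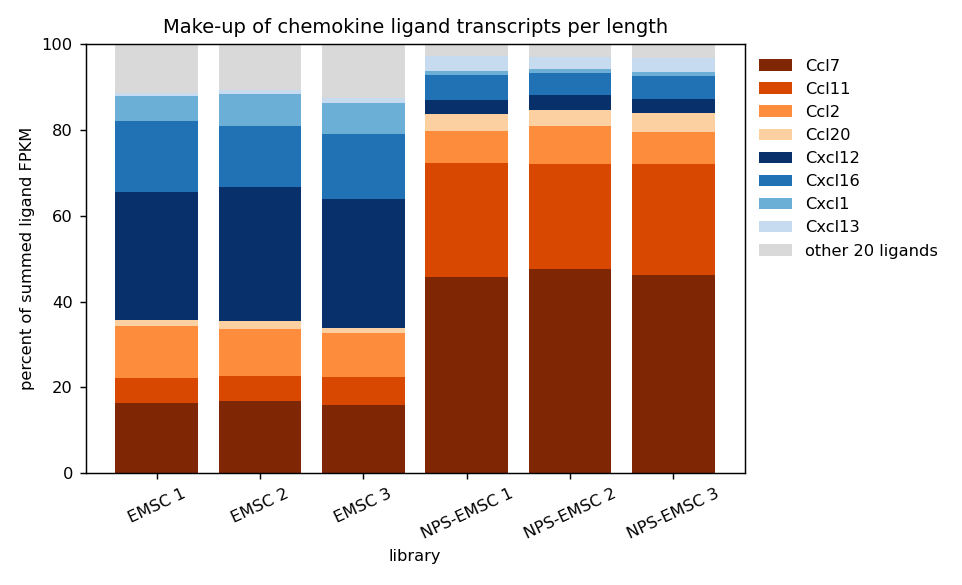
Share of each ligand in the summed ligand FPKM of each library, as stacked bars that reach 100 percent, with CC ligands in orange, CXC ligands in blue and the remaining ligands in grey. Ccl7 and Ccl11 fill most of each NPS-EMSC bar, and Cxcl12 is the largest share in each EMSC bar.

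The order of the tested genes by FPKM also differed. In EMSC, Ackr4 stood first at 183 ± 10.6 FPKM (SD, n = 3), ahead of Cxcl12 at 62.3 ± 4.49. The next in order were Ackr3, Ccl7 and Cxcl16, at 35.1 ± 0.0342, 33.6 ± 2.71 and 31.1 ± 2.0 FPKM, where neighbours overlapped and their order was not resolved. In NPS-EMSC, Ccl7 stood first at 152 ± 18.6 FPKM, above Ackr4 at 116 ± 1.58, Ccl11 at 83.4 ± 4.4 and Ccl2 at 26.3 ± 5.50, with no overlap between neighbours. Ccl20, Cxcl12 and Cxcl13 followed Cxcl16, at 13.2 ± 0.512, 11.1 ± 1.81 and 10.1 ± 0.397 FPKM. The values of Ccl20 and Cxcl12 overlapped, as did those of Cxcl12 and Cxcl13. Cx3cl1 was twelfth of the 21 in EMSC. In NPS-EMSC it overlapped with Ccl9 at the bottom of the order, at 0.0892 ± 0.0384 and 0.0896 ± 0.0297 FPKM.

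Genes that work beside chemokines are set against the shares over all tested genes, of which 29.7% rose and 29.5% fell. Of 10 tested relatives and partners, 4 rose, 4 fell and 2 did not pass. Pitpnm3, reported as a receptor of human CCL18, fell 7.83-fold, and Cmklr1, the chemerin receptor, fell 4.51-fold. Pf4, a platelet chemokine whose gene lies between Cxcl3 and Cxcl6, fell with a log2 fold change of -1.86 (SE 0.31, edgeR adjusted p = 1.10e-05). Rarres2, chemerin itself, fell by 0.29 on the log2 scale. Slit2, a guidance protein that counters chemokine-driven migration, rose 1.53-fold, and Mif, a cytokine that binds Cxcr2 and Cxcr4, rose 1.43-fold. Its further receptor genes Cd44 and Cd74 rose 1.30-fold and 1.75-fold. Cd74 had 137 and 232 reads over the groups and passed at an edgeR adjusted p = 0.0388, although its CPM values overlapped.

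NF-kB is the main inducer of inflammatory chemokines. Of 27 tested genes of this system, 9 rose, 7 fell and 11 did not pass, with a median log2 fold change of 0.10. The share that passed was 59.3%, equal to the 59.3% of all tested genes. Tlr2, a receptor of bacterial lipoproteins, fell 7.44-fold, from 29.3 ± 2.65 to 3.90 ± 0.945 CPM (SD, n = 3). Nfkb1, the p50 precursor gene, fell 1.49-fold, and Nfkbia, the inhibitor gene that NF-kB itself induces, fell 1.91-fold. Of 12 other tested NF-kB targets, 5 rose and 4 fell, with 3 not passing and a median of 0.0033. Sod2, mitochondrial superoxide dismutase, rose 1.82-fold, the adhesion gene Vcam1 fell 5.80-fold, and the protease gene Mmp3 fell from 85.1 ± 6.09 to 42.5 ± 2.39 CPM.

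Of 20 tested genes of interferon signalling, 9 rose and 6 fell (median 0.28), where 29.7% of all tested genes rose and 29.5% fell. The guanylate-binding protein gene Gbp2 fell 2.14-fold and the transcription factor gene Irf1 fell 1.73-fold, while the kinase gene Jak2 rose 1.39-fold. These had the smallest p and not the largest changes. At low counts, Mx1, Mx2, Rsad2, Isg15 and Ifit3 rose 4.80-fold, 4.17-fold, 3.41-fold, 2.05-fold and 2.05-fold without overlap. The EMSC libraries were uneven for Rsad2, at 0.593 ± 0.731 CPM, and for Mx1, at 0.187 ± 0.220 CPM (SD, n = 3). Rsad2 passed at an edgeR adjusted p = 0.0421. Oas1a did not pass, nor did Ifit2, which had more reads, 2418 and 2602 over the groups. Of 20 tested genes that couple or desensitise chemokine receptors, 6 rose and 7 fell (median -0.0500), so that 65.0% passed against 59.3% of all tested genes. Rgs3 and Rgs2, regulators that shorten G protein signals, rose 2.81-fold and 8.04-fold, and Gnai1, an inhibitory G protein subunit gene, rose 2.36-fold. Gnai2, a more abundant gene of the same kind, fell 1.26-fold, from 511 to 405 CPM, and Gnai3 did not pass. Of 25 tested genes that hold chemokines on heparan sulfate or cut them, 11 rose and 9 fell (median 0.0112), or 80.0% against the same 59.3%. The proteoglycan gene Gpc1 rose 2.42-fold, Gpc6 fell 3.01-fold, and Mmp2, a protease that can cleave Cxcl12 and Ccl7, rose 2.19-fold. Dpp4, a peptidase that inactivates Cxcl12, had 10 reads over EMSC and 0 over NPS-EMSC and was not tested.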

How the data were processed

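RNA sequencing counts of 6 libraries were used. The authors deposited whole-number read counts per gene and an FPKM table of the same 20653 genes. In the submitters' processing notes, HISAT2, StringTie, HTSeq, fastp, R 3.2.0 and DESeq appear without role or order. For build, annotation and strand setting the sources used here give nothing. Counts divided by FPKM and library total gave 1 length per gene, within 0.1 percent, so the deposited FPKM is a rescaled count.

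Genes were tested on counts with edgeR 4.0.16 in R 4.3.3 (quasi-likelihood F test, robust, TMM, filterByExpr with a minimum count of 10 and total of 15), with Benjamini-Hochberg adjustment over all 14505 tested genes and a threshold of 0.05. Log2 fold changes use a prior count of 2, and their SE is the absolute value divided by the square root of F. The prior count pulls low genes towards 0. CPM uses TMM-scaled totals. The 6148 untested genes held 0.0337% to 0.0393% of the reads of a library. The procedure was tested on simulated counts. Alternatives used DESeq2 1.42.0 and limma 3.58.1. Replicates of a group differed beyond sampling noise, so none was merged.

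The genes and lists were chosen with earlier results of these data known. Every tested chemokine or receptor gene is named with its values. From each of 6 lists of pathway genes the 3 called genes with the smallest p are named (of the relatives, all 8 called), and other names were chosen after their values were seen. Some genes of these lists are not reported here.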

Additional observations from a re-analysis of the deposited data

How the results depend on the processing

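The settings varied were the scaling, the test, the filter, the unit, the threshold, a replicate block and leaving out each library, 17 alternatives in all. Over these, no fold change of the 21 tested chemokine and receptor genes reversed where it could be computed, and the calls of 16 of them did not change. Of the 349 values, 334 stayed on their side of the threshold, 10 calls were lost (Cxcl3, Cxcr4 and Ccl9) and 5 gained (Ccl2 and Ccl27). At a threshold of 0.01, Cxcl3 and Cxcr4 were lost and 16 genes remained past it. Leaving out 1 library gave 17 to 21 called, 5 to 7 higher and 11 to 15 lower, out of 21 to 23 tested genes, since some of these fits tested further genes. The 21 called came without NPS-EMSC replicate 2, where 23 were tested and Ccl2 and Ccr1 did not pass. With a CPM of at least 1 in at least 3 libraries, 15 were called because fewer were tested. On log2(FPKM + 1) values, Cx3cl1 had -1.81, Cxcl6 -1.71, Ccl19 -0.90, Cxcl14 -0.50, Cxcl3 -0.55 and Cxcr4 0.38, and without a filter Ccl9 had -0.37, in that a pseudocount shrinks low genes. The replicate numbers did not pair the libraries: deviations of same-numbered libraries correlated at -0.0389, 0.046 and 0.0356. With the replicate block 19 chemokine and receptor genes were called, Ccl2 being gained (adjusted p = 0.0349), and over all genes the count was 8588 against 8600. Genes without about 10 reads in at least 3 libraries could not be tested at this depth. A gene that reached this in 1 group was tested even where the other group fell below it, as Ccl9 did in NPS-EMSC.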
